A study of Mus musculus with 2 samples.

Results

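T-box factors are transcription factors that share a DNA-binding domain, the T-box. The 6 members described here, Tbr1, Eomes, Tbx2, Tbx3, Tbx5 and Tbx20, were chosen by gene symbol, and all 6 were found among the 24015 gene symbols of the series. RNA was sequenced from J-RGCs, retinal ganglion cells marked by the adhesion molecule Jam2, taken from mouse retina at postnatal day 6. A transgene particular to these cells made them fluoresce green, and they were enriched by beads and cell sorting, so the libraries hold the cells that the transgene marks. The single group held 2 libraries, A and B, which came from different litters and pooled 5 to 6 animals each. No second cell type, age, genotype or treatment was analysed, so levels were compared between genes and between the 2 libraries.

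T-box factors bind DNA at sites built on a short half-site and activate or repress nearby genes, often at developmental choices between cell types. In the retina Tbr1 marks a small set of ganglion cell types that includes J-RGCs, and Eomes, also called Tbr2, is needed for the photosensitive ganglion cells that make melanopsin. Tbx20 is found in photosensitive ganglion cells as well, and in the heart it controls cardiac muscle genes. Tbx2, Tbx3 and Tbx5 take part in setting up the dorsal side of the developing eye, and Tbx5 is also a regulator of heart and forelimb development.

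Counts assigned to genes summed to 7916204 in library A and to 13744313 in library B, and levels are given as CPM, the share of that sum scaled to a total of 1000000. All 10 ganglion cell markers examined, Jam2 among them, exceeded 100 CPM in both libraries. The level of 8 markers was summed for each of the other cell types. For amacrine cells the sum came to 417 CPM (library A) and 476 CPM (library B). Of that, Pax6, a factor that ganglion cells use too, made 291 and 368 CPM, while Chat had 0 and 1 counts. Of the 8 amacrine markers 4 stood at 10 CPM or more in both libraries. Beside Pax6 these were Gad2 at 58.4 and 56.8 CPM, Tfap2b at 42.2 and 30.9 CPM, and Tfap2a at 184 and 138 counts. The summed level was 237 and 128 CPM for bipolar and horizontal cells, and 126 and 168 CPM for Müller glia and astrocytes. For microglia and lymphoid cells the sum was 219 and 261 CPM, and for endothelial and mural cells 410 and 117 CPM. For photoreceptors the sum was 19.2 and 21.3 CPM, and for pigment epithelium 7.07 and 12.6 CPM. Some T-box factors are used by other retinal cells too, and the part of such cells in the levels below was not tested. In RNA pooled from many cells, fewer cells of a type and less RNA per cell cannot be told apart.

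All 6 members were read in these cells, at levels that spanned more than a factor of 10. They summed to 234 CPM in library A, against 228 CPM in library B, with a mean of 231 ± 3.86 CPM (SD, n = 2). Every member stood at 1 CPM or more in both libraries, the level used here to call a gene detected, against 46.8% of all gene symbols. The median of their log2(CPM + 0.5) levels was 5.01 in A and 4.78 in B, beside 2.66 and 3.195 over the 16969 genes with a count. The members were chosen with levels in these data known, so these figures describe them and test nothing.

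Tbr1, which in the developing cortex specifies early-born projection neurons of the deep layers, had 482 counts in A and 1253 in B. That is 60.9 CPM in A, with an exact Poisson 95% interval of 55.6 to 66.6, and 91.2 CPM in B, with an interval of 86.2 to 96.4. The mean was 76.0 ± 21.4 CPM (SD, n = 2), so Tbr1 was moderately abundant. Scaled to the gene total, it differed between the libraries by more than counting error. It ranked 2777 among all genes in A and 2226 in B, above 83.6% and 86.9% of the genes with a count. Sequenced reads carried no molecular identifiers, so Poisson intervals cover counting error only.

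Tbx20 and Eomes, both known from photosensitive ganglion cells, were, with Tbr1, the members with the most counts. Tbx20 had 756 counts in A and 948 in B, or 95.5 and 69.0 CPM, and a mean of 82.2 ± 18.8 CPM (SD, n = 2). Eomes had 379 counts in A and 438 in B, or 47.9 and 31.9 CPM, and a mean of 39.9 ± 11.3 CPM (SD, n = 2). Both were higher in A relative to B, and Tbr1 was lower. Of all counts given to the 6 members, Tbx20 held 40.9% in A and 30.2% in B, Tbr1 26.1% and 39.9%, and Eomes 20.5% and 14.0%. The member with the most counts was thus Tbx20 in A and Tbr1 in B.

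The factors of the dorsal eye had fewer counts and differed among themselves. Tbx2 had 166 counts in A and 315 in B, which is 20.97 and 22.9 CPM, and it varied little between the libraries at 21.9 ± 1.38 CPM (SD, n = 2). Tbx5 had 40 and 76 counts, or 5.05 and 5.53 CPM (5.29 ± 0.337 CPM; SD, n = 2). Tbx3, a close relative of Tbx2 and mostly a repressor, had 27 and 107 counts, or 3.41 and 7.79 CPM (5.598 ± 3.09 CPM; SD, n = 2). Tbx5 and Tbx3 thus rested on few reads, with Poisson intervals in A of 3.61 to 6.88 CPM for Tbx5 and 2.25 to 4.96 CPM for Tbx3, which overlapped.

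**Figure D1:**
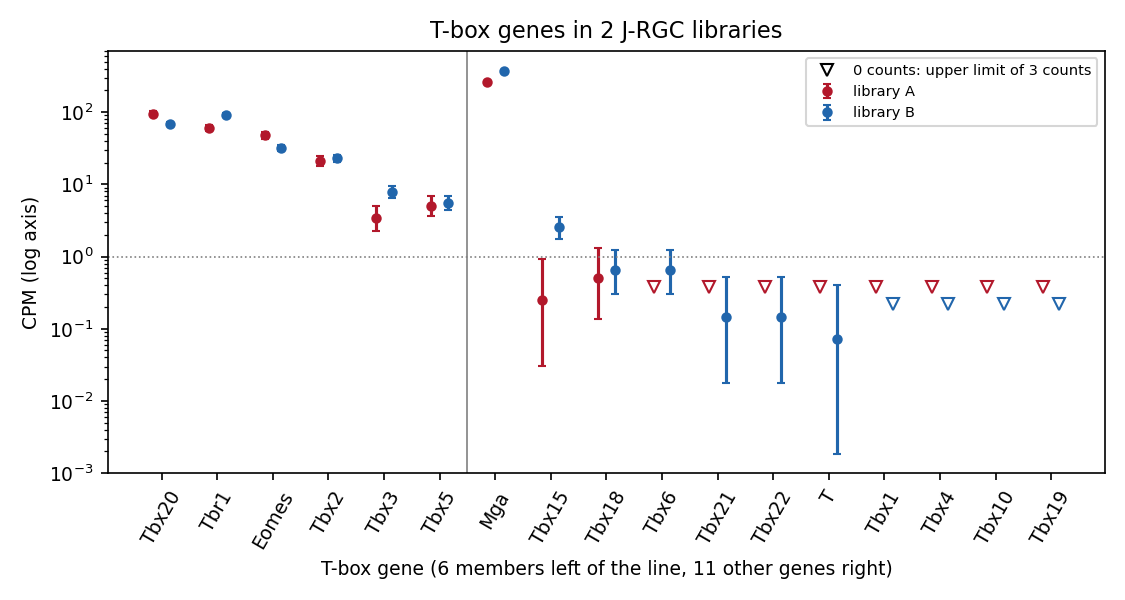
Level of each T-box gene in libraries A (red) and B (blue), in CPM on a log axis, with exact Poisson 95% intervals; open triangles mark genes with 0 counts at the upper limit of 3 counts, and the dotted line marks 1 CPM. The 6 members lie between 3.41 and 95.5 CPM, and of the 11 other genes Mga alone lies above 1 CPM in both libraries.

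The start-site regions of Tbr1, Eomes and Tbx20 are shown, which are also the 3 members with the most counts of the 6. RefSeq promoters on build GRCm38.p6 were matched by symbol for these 3 alone, and none was matched for Tbx2, Tbx3 and Tbx5. Each runs from 250 bases before the transcription start to 50 bases after it. Capitals mark matches, on either strand, to the letters TAATTA, a core bound by homeodomain factors, and CCAAT, a common promoter element. The letters GGTGTGA, a T-box half-site, were searched on both strands too. No matches overlapped in the 3 windows.
Tbr1, chr2:61804203-61804502, plus strand: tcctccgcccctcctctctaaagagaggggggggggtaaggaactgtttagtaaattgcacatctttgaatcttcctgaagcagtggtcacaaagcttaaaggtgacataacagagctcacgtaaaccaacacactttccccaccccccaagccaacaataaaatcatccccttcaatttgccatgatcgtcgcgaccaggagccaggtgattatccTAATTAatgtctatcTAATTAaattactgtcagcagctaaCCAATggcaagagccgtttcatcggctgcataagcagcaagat
Eomes, chr9:118477939-118478238, plus strand: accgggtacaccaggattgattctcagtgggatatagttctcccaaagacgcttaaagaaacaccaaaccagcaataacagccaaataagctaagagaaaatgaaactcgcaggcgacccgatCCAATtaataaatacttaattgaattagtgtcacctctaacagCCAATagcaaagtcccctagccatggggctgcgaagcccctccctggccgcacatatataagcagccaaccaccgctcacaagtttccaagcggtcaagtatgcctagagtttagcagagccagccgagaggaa
Tbx20, chr9:24774254-24774553, minus strand: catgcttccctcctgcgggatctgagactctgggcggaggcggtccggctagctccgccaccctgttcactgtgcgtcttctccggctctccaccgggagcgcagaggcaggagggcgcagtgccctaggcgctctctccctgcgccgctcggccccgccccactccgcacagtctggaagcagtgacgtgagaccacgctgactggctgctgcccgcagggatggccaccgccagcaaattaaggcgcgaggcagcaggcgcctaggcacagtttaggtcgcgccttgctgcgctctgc
The Tbr1 window held TAATTA at 2 places, the first bases of which lay 33 and 18 bases before the start. That motif was in 5.29% of the 32851 promoters of the same length, and in neither of the other two windows. CCAAT was in the Tbr1 window once and in the Eomes window at 2 places, 127 and 84 bases before the start, against 37.4% of all promoters. None of the 3 windows held GGTGTGA, which 3.98% of all promoters did. These are matches of letters and say nothing of binding.

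Counts rise with transcript length, so levels of different genes were compared per kilobase. The summed exon length in the GENCODE M21 annotation was 5.49 kb for Tbr1, 4.155 kb for Eomes, 3.63 kb for Tbx2, 6.62 kb for Tbx3, 4.675 kb for Tbx5 and 11.997 kb for Tbx20. On the scale of CPM per kilobase Tbr1 led at 13.9 ± 3.90 (11.1 in A and 16.6 in B; SD, n = 2), followed by Eomes at 9.60 ± 2.72 (11.5 and 7.67), Tbx20 at 6.85 ± 1.56 (7.96 and 5.75) and Tbx2 at 6.05 ± 0.380 (5.78 and 6.32). Tbx5 at 1.13 ± 0.0721 (1.08 and 1.18) and Tbx3 at 0.845 ± 0.467 (0.515 and 1.18) came last. The order differed between the libraries: Eomes stood above Tbr1 in A, and Tbx2 stood above Tbx20 in B.

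The 15 ratios between members fell into a higher and a lower set. A ratio was called separated from 1 when its 95% interval excluded 1; the interval allows for counting error and for the trended dispersion between libraries that edgeR estimates. The intervals are for single pairs, with no adjustment for their number. Of the 15 ratios 8 were separated, and all 8 set Tbr1, Eomes, Tbx20 or Tbx2 against Tbx5 or Tbx3. Tbr1 exceeded Tbx5 12.2-fold per kilobase (95% interval 4.35 to 34.5), and it exceeded Tbx3 16.4-fold (5.56 to 48.4). Among neighbours in the order, the one step that was separated was that of Tbx2 over Tbx5, at 5.35-fold (1.81 to 15.8), with 5.35-fold in A and 5.34-fold in B.

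The 4 members of the higher set were not separated from each other. Tbr1 over Eomes was 1.44-fold per kilobase (95% interval 0.604 to 3.45), Eomes over Tbx20 1.40-fold (0.586 to 3.34) and Tbx20 over Tbx2 1.13-fold (0.456 to 2.81). Tbr1 over Tbx2 was 2.29-fold (0.921 to 5.70), Tbr1 over Tbx20 2.02-fold (0.864 to 4.73) and Eomes over Tbx2 1.59-fold (0.626 to 4.02). In the lower set Tbx5 over Tbx3 was 1.34-fold (0.391 to 4.59), and without library B it was 2.10-fold, against 1.01-fold without library A. An interval that holds 1 does not show that 2 genes were equally abundant, and of these 7 intervals that of Tbx20 over Tbx2 alone ended below 3.

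**Figure D2:**
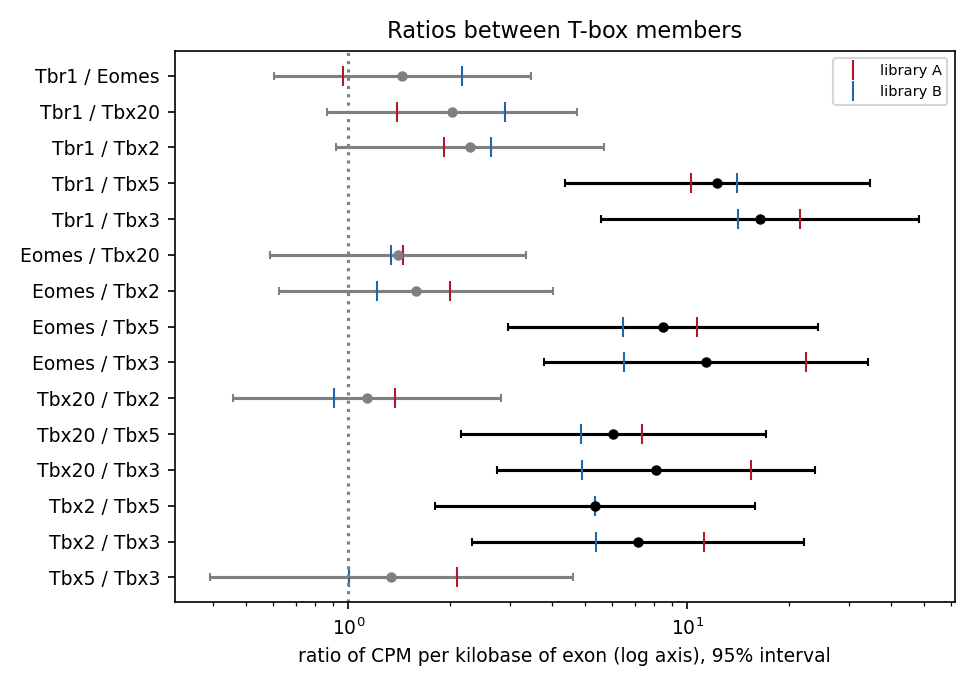
Ratio of each pair of T-box members in CPM per kilobase of exon, on a log axis, with the 95% interval; black pairs exclude 1, grey pairs hold it, and red and blue ticks give the ratio in libraries A and B. The 8 black pairs all set one of Tbr1, Eomes, Tbx20 and Tbx2 against Tbx5 or Tbx3, and the red tick of Tbr1 over Eomes lies at 0.963, against 2.17 for the blue one.

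The place of Tbx20 depended on the length taken for its transcript. Its summed exons include a transcript of 9.09 kb, while its shortest transcript with a consensus coding sequence (CCDS) tag is 1.80 kb, and which one these cells use was not measured. With the shortest CCDS-tagged transcript of each gene Tbx20 led at 45.7 ± 10.4 CPM per kilobase (SD, n = 2), and Tbr1 over Tbx20 was 0.419-fold (95% interval 0.179 to 0.980). Eomes over Tbx20 was then 0.304-fold (0.127 to 0.727) and Tbx20 over Tbx2 7.55-fold (3.04 to 18.7). Tbr1 over Tbx2 was 3.16-fold (1.27 to 7.86) with that length, and equally with the longest transcript of the basic annotation. All 8 pairs that set a gene of the higher set against Tbx5 or Tbx3 remained separated with either length.

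**Figure D3:**
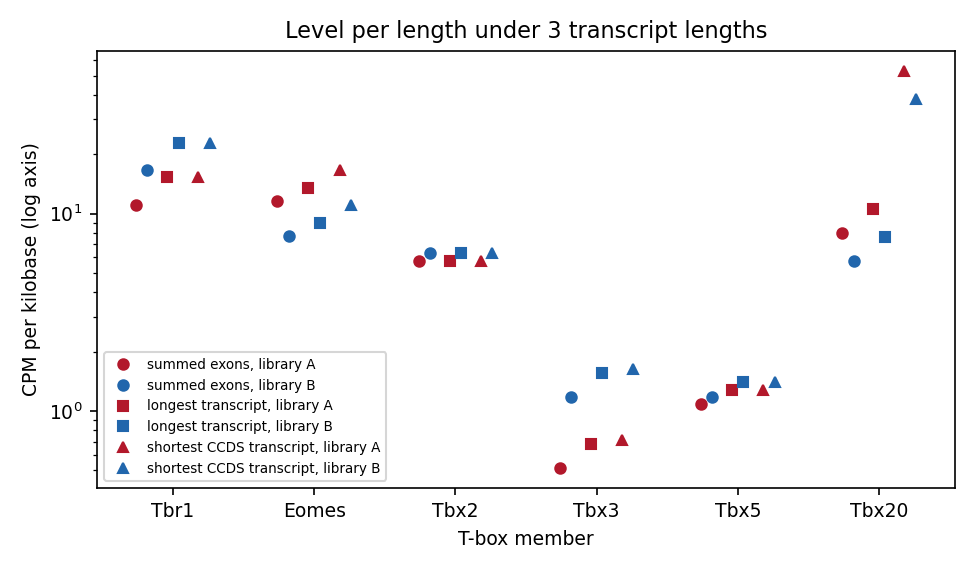
Level of each member in CPM per kilobase, on a log axis, with the summed exon length (circles), the longest transcript of the basic annotation (squares) and the shortest CCDS-tagged transcript (triangles), in libraries A (red) and B (blue). In A the circle of Tbx20 lies at 7.96 and its triangle at 53.0, while Tbx2 stays at 5.78 because its 3 lengths are equal.

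Over identical stretches of 50 bases, the annotated transcripts of the members could be told apart from each other. Shorter reads and reads mapped with mismatches were not covered. No window of 50 bases was identical between the annotated transcripts of any 2 of the 6 genes, on either strand. Windows identical to a transcript of some other gene made up 2.10% of Eomes, 1.01% of Tbx3, 0.368% of Tbx5, 0.146% of Tbr1, 0.0834% of Tbx20 and 0% of Tbx2. The exons of Eomes shared 118 bases with the opposite-strand gene Gm33460, and those of Tbx3 shared 115 bases with Tbx3os1. The strand setting of the counting was not stated, so reads of those bases cannot be told apart between the genes. Neither opposite-strand gene had a row of its own under that name.

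Between the 2 libraries, 1 of the 6 members passed both limits set for a difference. They were an adjusted value under 0.05 in an exact two-sided binomial test of the counts, with Benjamini-Hochberg adjustment over 14107 genes, and a change of at least 2-fold on the CPM + 0.5 scale. Tbx3 passed both, at 0.438-fold in A relative to B (log2 of A over B -1.08 with the pseudocount; adjusted p = 0.000106). Over all genes tested 42.6% were called, 10.3% as higher in A and 32.3% as higher in B, so a call on 1 of 6 members is no more than the background holds. The test compares 2 libraries of 1 group and says nothing of a condition.

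The other members stayed within 2-fold. Tbr1 was 0.668-fold in A relative to B (adjusted p = 4.48e-14 by the exact binomial test). Eomes was 1.502-fold and Tbx20 1.38-fold (adjusted p = 2.62e-08 and 1.24e-10 by the same exact binomial test). Scaled to the gene total, these 3 thus exceeded counting error but missed the limit on size. Tbx2 at 0.915-fold (adjusted p = 0.421) and Tbx5 at 0.914-fold (adjusted p = 0.757) did not exceed counting error in that exact test. The median log2 of A over B was -0.12 over the members and -0.53 over all genes tested.

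The call on Tbx3 depended on the scaling of the libraries. Before the pseudocount, TMM factors moved log2 ratios of A over B by 0.39 towards A and DESeq2 size factors by 0.48, and with it low genes such as Tbx3 moved less. With TMM factors 0 of 6 members were called, against 37.2% of all genes (14.8% higher in A and 22.4% higher in B), and Tbx3 had a log2 ratio of -0.73. By edgeR's TMM scaling Eomes stood at 0.96 and Tbx20 at 0.85 on that scale. Tbr1 stood at -0.19 (adjusted p = 0.0194 by the exact binomial test). Tbx2 and Tbx5 changed sign with TMM factors, to 0.26 and 0.24, and did not pass the limits. With DESeq2 size factors Eomes was called in place of Tbx3, at a log2 ratio of 1.05, and Tbr1 stood at -0.10.

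A ratio of 2 genes within a library does not depend on that scaling. Tbr1 over Eomes was 0.963-fold per kilobase in A and 2.17-fold in B, so the ratio in A was 0.445 of that in B. Tbr1 over Tbx20 was 1.39-fold in A and 2.89-fold in B, or 0.482 of the ratio in B. Eomes over Tbx20 was 1.45-fold in A and 1.33-fold in B, and Tbx2 over Tbx5 differed by a factor of 1.001. The largest moves were those of Eomes over Tbx3, at 22.4-fold in A and 6.53-fold in B, and Tbx20 over Tbx3, at 15.5-fold and 4.89-fold. Both rested on 27 and 107 counts of Tbx3. Tbr1 over Tbx3 moved less, from 21.6-fold in A to 14.1-fold in B. Of the 8 endothelial and mural markers 7 could be tested between the libraries, and 3 were called higher in A and 3 higher in B. The shares over all genes tested were 10.3% and 32.3%. The mural genes Rgs5 (342 CPM in A against 82.4 in B) and Pdgfrb (51.9 against 10.3) were higher in A, while the endothelial gene Tek (1.64 against 8.22) was lower. Their part in these values was not tested.

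**Figure D4:**
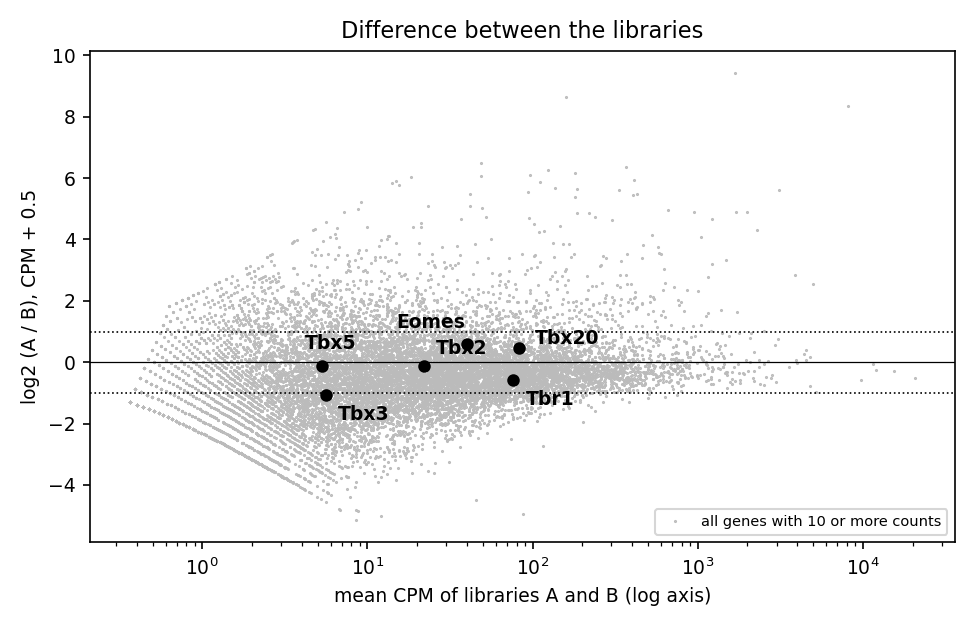
Log2 ratio of library A over library B, on the CPM + 0.5 scale, against the mean CPM of both libraries on a log axis; grey points are all genes with 10 or more counts, black points the 6 members, and dotted lines mark 2-fold. Tbx3 at -1.08 is the member outside the dotted lines, with Tbr1 at -0.58 below 0 and Eomes at 0.58 and Tbx20 at 0.47 above it.

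Most of the rest of the T-box family was not detected. Of the 11 other T-box genes 1 was detected, which makes 7 of the family's 17, or 41.2%, beside 46.8% of all gene symbols. That gene was Mga, which carries a bHLH domain beside its T-box and acts with Max, at 260 CPM in A and 374 CPM in B (317 ± 80.4 CPM; SD, n = 2). Mga had more counts than any member, and its exons sum to 15.3 kb. Per kilobase it stood at 17.0 in A and 24.4 in B, 1.53-fold and 1.47-fold over Tbr1. Intervals were computed for ratios between the 6 members alone. The 6 members held 47.2% of all T-box counts in A and 37.6% in B.

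The remaining T-box genes lay near 0. Tbx1, Tbx4, Tbx10 and Tbx19 were at 0 counts in A and in B. At the limit of 3 counts, levels up to 0.379 CPM in A and 0.218 CPM in B remain possible. T, the brachyury gene of early mesoderm, had 0 counts in A and 1 in B. Tbx21, also known as T-bet, of lymphoid cells, had 0 and 2 counts. Eomes, at 379 and 438 counts, is a factor that lymphoid cells also use. Of the 8 microglia and lymphoid markers, the lymphoid genes Cd3e, Nkg7 and Ncr1 were at 0 counts in both libraries. Another 4 were detected, among them Csf1r at 634 and 1198 counts and Ptprc at 77 and 341. The part of such cells in the Eomes counts was not tested. Tbx18, known from mural cells, had 4 and 9 counts. Tbx6, a factor of paraxial mesoderm, had 0 and 9 counts, and Tbx22, known from the palate, 0 and 2. Tbx15 was read mostly in B, with 2 counts in A and 35 in B, or 0.253 and 2.55 CPM (adjusted p = 4.46e-05 by the exact binomial test). Of all genes tested 32.3% were called higher in B.

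Genes whose products work with Tbr1 elsewhere were present in these cells. Of 6 genes, made up of partners of the Tbr1 protein and Auts2, all 6 were detected, beside 46.8% of all gene symbols. Among them 5 stood at 10 CPM or more in both libraries, a limit not applied to all genes. Cask, a membrane-associated scaffold kinase that enters the nucleus with Tbr1 in cortical neurons, stood at 1223 CPM in A and 838 CPM in B. The forkhead factor Foxp2 stood at 668 and 156 CPM and Foxp1 at 93.7 and 111 CPM. Per kilobase Foxp2 had 40.9 CPM in A and 9.56 in B, so it stood above Tbr1 in A and below it in B. Bcl11a, a zinc finger factor of cortical neurons, stood at 66.3 and 15.9 CPM. Auts2, a neurodevelopmental gene bound by Tbr1 in cortex, stood at 27.3 and 76.2 CPM. The lowest by mean CPM was Tspyl2, a nucleosome assembly protein that joins Cask and Tbr1, at 8.46 and 43.6 CPM. By the exact binomial test Foxp2 and Bcl11a were called higher in A, and Auts2 and Tspyl2 higher in B, where 42.6% of all genes tested were called in one direction or the other.

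Of 10 genes tied to Tbr1 in cortex 6 were detected, beside 46.8% of all gene symbols, and Auts2 is counted here too. Reln, which encodes the secreted guidance protein reelin and is a classic Tbr1 target, had the highest CPM of them at 1528 CPM in A and 1246 CPM in B (1387 ± 199 CPM; SD, n = 2), ranking 71 and 75 among all genes. Cntnap2, an axonal adhesion gene, stood at 255 and 224 CPM. Grin2b, a subunit of NMDA receptors, stood at 60.9 and 148 CPM. Fezf2, a factor of subcortical projection neurons that Tbr1 represses in cortex, was the lowest, with 0 counts in A and 2 in B. Of the 8 genes that could be tested 0 were called higher in A and 5 higher in B, beside 10.3% and 32.3% of all genes tested. Whether Tbr1 controls any of these genes in J-RGCs was not measured.

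Sorcs3 and Cdh8, which have been tied to Tbr1 in J-RGCs, were both detected, beside 46.8% of all gene symbols. Per kilobase both had lower levels than Tbr1 in each library, with no interval computed for those ratios. Both genes may have been singled out on these same libraries, so their levels are no independent evidence. The sortilin receptor gene Sorcs3 stood at 54.2 CPM in A and 77.3 CPM in B, or 7.60 and 10.8 CPM per kilobase, against 11.1 and 16.6 for Tbr1. The cadherin gene Cdh8 stood at 29.2 and 56.5 CPM, or 3.77 and 7.30 CPM per kilobase. Their log2 ratios of A over B were -0.51 for Sorcs3 and -0.94 for Cdh8, beside -0.58 for Tbr1 and a median of -0.53 over all genes tested, and neither passed the 2-fold limit.

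Beside Eomes and Tbx20, other genes of photosensitive ganglion cells were read. Of 10 such genes 9 were detected, beside 46.8% of all gene symbols, and 7 stood at 10 CPM or more in both libraries. The highest were signalling genes that other neurons use as well, namely the phospholipase gene Plcb4 at 279 CPM in A and 304 CPM in B and the G protein gene Gnaq at 211 and 274 CPM. Gna11, another G protein gene of that group, stood at 36.8 and 87.8 CPM, and Adcyap1, the neuropeptide gene for PACAP, at 29.8 and 33.3 CPM. The lowest, Gna14, had 4 counts in A and 1 in B. Opn4, the melanopsin gene itself, outside the naming rule for its level and named after its values were seen, stood at 15.03 and 25.9 CPM. Opn4 was thus 0.580-fold in A relative to B, beside 1.502-fold for Eomes and 1.38-fold for Tbx20. Of the 9 genes of that list that could be tested 1 was called higher in A and 3 higher in B. Over all genes tested the shares were 10.3% and 32.3%, with a median log2 of A over B of -0.53. Whether these levels came from the same cells was not tested.

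Few genes of the dorsal and ventral axis of the eye, along which Tbx2, Tbx3 and Tbx5 act, were abundant. Of 5 dorsal genes 4 were detected, led by the ephrin genes Efnb2 at 44.6 CPM in A and 72.6 CPM in B and Efnb1 at 5.18 and 26.2 CPM. Bmp4, a dorsal signal that acts upstream of Tbx5 in the embryonic eye, had 0 and 2 counts. Of 8 ventral genes 4 were detected, led by the Eph receptor genes Ephb2 at 31.1 and 58.4 CPM and Ephb1 at 12.6 and 24.3 CPM, followed by Ephb3 at 5.68 and 7.42 CPM. The ventral factor Vax2 stood at 1.89 and 6.11 CPM, and Vax1 had 0 counts in both libraries. Of the 4 nasal and temporal factors 0 were detected, and Foxd2 had 0 counts in both libraries. The share detected over all gene symbols was 46.8%.

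As a list, the T-box members had a lower median CPM, not corrected for length, than the factors that define ganglion cells, although single factors lay below single members. The members had a median of 34.4 CPM in library A and 27.4 CPM in library B, against 307 and 303 CPM for 10 such factors, of which 8 were detected. Ebf3 stood at 709 and 802 CPM, Pou4f2 at 486 and 1011 CPM, Ebf1 at 886 and 597 CPM and Pou4f1 at 416 and 695 CPM. Atoh7, which starts the ganglion cell fate in progenitors, had 0 counts in both libraries.

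Of 9 genes for proteins that work with T-box factors 7 were detected, beside 46.8% of all gene symbols. They were led by the chromatin remodeller gene Chd4 at 123 CPM in A and 218 CPM in B, the Groucho co-repressor gene Tle4 at 77.7 and 158 CPM, the deacetylase gene Hdac2 at 93.0 and 130 CPM and Tle3 at 16.3 and 33.4 CPM. Nkx2-5, a heart partner of Tbx5 and Tbx20, had 0 counts in both libraries. Gata4, the other heart partner on that list, had 0 counts in A and 1 in B.

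**Figure D5:**
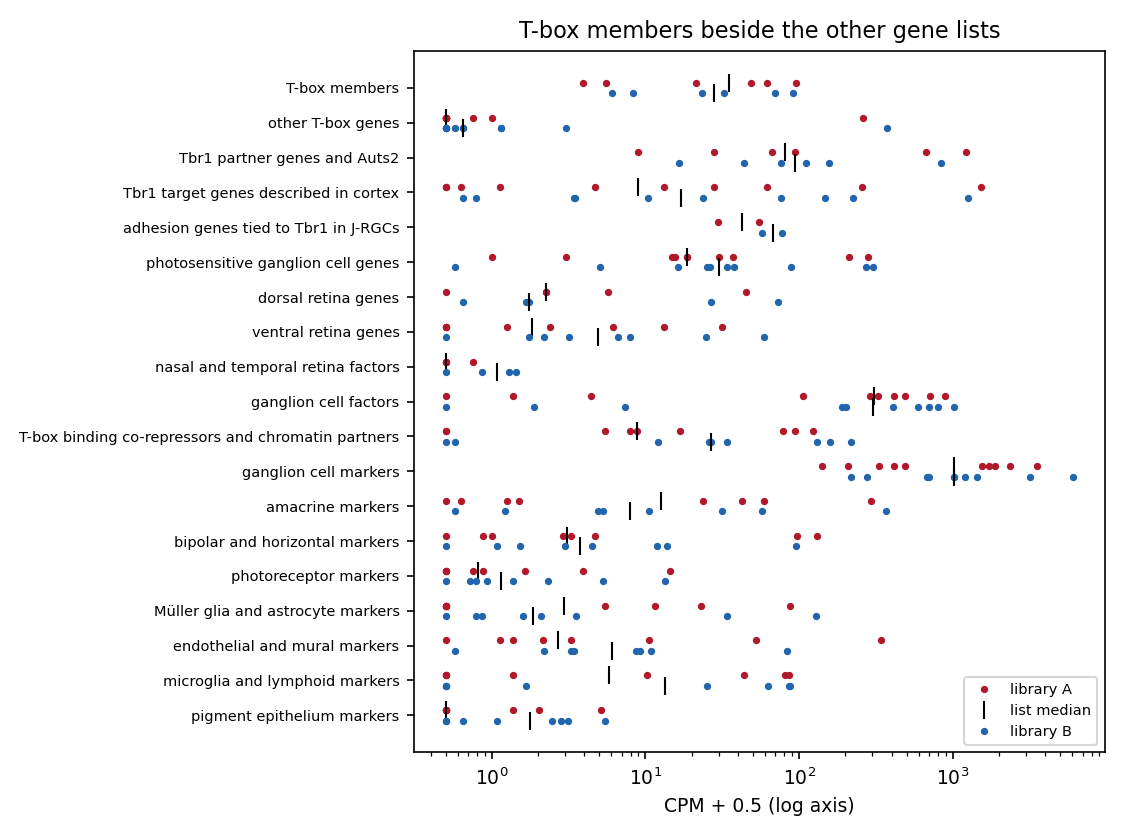
CPM + 0.5 of every gene of each list on a log axis, in libraries A (red) and B (blue), with the list median as a black tick. The T-box members have medians of 34.4 CPM (A) and 27.4 CPM (B), below those of the ganglion cell factors at 307 and 303 CPM, and 10 of the 11 other T-box genes lie at or below 2.55 CPM.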

How the data were processed

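For each library the authors deposited a table of raw read counts, with 1 symbol a line. Per the submitters' processing notes the tools were HTSeq 0.6.1, TopHat2 2.0.10 and Trimmomatic 0.32, and the build was mm9. Settings, annotation and strand use are not stated. Summary lines were left out of the gene totals: genes took 26.8% of the reads listed in A and 30.9% in B, and the rest is HTSeq's summary classes.

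Counts were scaled to CPM of the gene total. The files give no coordinates, so GENCODE M21 (GRCm38) served only for lengths, shared windows and overlapping genes, and RefSeq for promoters. Low transcripts are limited by depth: 3 counts equal 0.379 CPM in A and 0.218 CPM in B. As there was 1 group, edgeR's quasi-likelihood test had nothing to compare. Dispersions came from an intercept-only fit in edgeR 4.0.16 (R 4.3.3) over the 11272 genes passing its expression filter, with a common biological coefficient of variation of 0.507. Each gene ratio's variance was the sum of counting error and trended dispersion over both libraries. Library differences used an exact binomial test (two-sided, the smaller tail doubled) on genes with at least 10 counts, with the 2-fold limit on log2(CPM + 0.5). DESeq2 1.42.0 size factors and TMM factors were alternatives. Both statistics were run on simulated data, the binomial test with counting error alone and the ratio interval with a dispersion shared by all genes. Those settings are simpler than the real libraries, so the runs do not show how either statistic performs on them. The other steps ran in Python 3.11.15 (scipy 1.17.1, numpy 2.4.6, pandas 2.3.3). The members and gene lists were chosen with earlier results of these data known. All members are named, and of each list up to the 4 highest by mean CPM, the lowest and those with 0 counts in both libraries, or any gene of a list of 6 or fewer. Exceptions were named after their values were seen: Opn4, T, Tbx21, Tbx22 and Gata4.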

Additional observations from a re-analysis of the deposited data

How the results depend on the processing

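The separation of Tbr1, Eomes, Tbx20 and Tbx2 from Tbx5 and Tbx3 held under all 9 alternatives for the ratios. With CPM not corrected for length, Tbx20 over Tbx2 was 3.75-fold and past the limit. With the shortest CCDS-tagged length it was 7.55-fold, Eomes over Tbx20 turned to 0.304-fold and Tbr1 over Tbx20 to 0.419-fold. Both transcript-length alternatives were chosen after seeing the data. What changed there was the length alone, that of Tbx20 most. Under TMM factors 0 members were called between the libraries, because the scaling moved all ratios. Of the other T-box genes 2 were detected at 0.5 CPM, Tbx18 being the added one, and 1 to 2 when 1 library was left out, Tbx15 being the one added by B alone. No paired analysis was possible because there was 1 group. Leaving out 1 library makes the other the sole value, so spread is then assumed. With 2 libraries, ratios of 2.29 or less were not separated and those of 5.35 or more were.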
